A study of Mus musculus with 3 samples.

Results

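Fibroblasts (FBs) that express Ptn, the gene of the secreted growth factor pleiotrophin, were described in single-cell RNA sequencing of the aged mouse thymus. A called barcode was counted as a Ptn FB when it had over 1000 genes and under 20% mitochondrial counts, at least 1 unique molecular identifier (UMI) of Pdgfra, the receptor gene that marks FBs, and at least 3 UMIs of Ptn. Members were thus selected on the measured counts of Pdgfra and Ptn, and further on having 0 UMIs of Pi16, a marker of adventitial FBs, fewer than 3 UMIs of Smoc2 and Dpep1 together, which mark another group of thymic FBs, and 0 UMIs of Epcam, Pecam1, Upk3b and Ptprc, which mark epithelial, endothelial, mesothelial and hematopoietic cells. Of 17677 called barcodes, 14956 passed the limits on genes and mitochondrial counts, 4449 of these had Pdgfra without the last 4 genes (Pdgfra barcodes), and 1296 were Ptn FBs.

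The study traced the Foxn1 lineage through old thymic stroma. Foxn1 is the transcription factor that makes and keeps thymic epithelial cells (TECs). The study had 3 libraries of CD45- thymic cells from untreated C57BL/6 mice aged 20 months, and each was the only library of its group (n = 1). Foxn1Lin female and Foxn1Lin male came from Foxn1 lineage trace mice, in which Cre from the Foxn1 gene removes a stop before tdTomato, a red fluorescent protein, so that a cell and its progeny stay marked. The wild type came from males without the trace. The protocol in the labels depletes CD45+ cells from pooled thymi and sorts the remainder, and the cell type field of the wild type alone adds PECAM1+. Sex, genotype, sort and library therefore cannot be told apart between libraries. Where 3 values are listed below they stand in the order of Foxn1Lin female, then Foxn1Lin male, then wild type.

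Pleiotrophin and its relative midkine bind heparan and chondroitin sulfate proteoglycans at the cell surface and are known as growth and guidance factors of mesenchyme, nerve and vessels. Thymic FBs supply epithelial growth factors, chemokines and extracellular matrix, and FBs of the capsule and vessel sheaths are known to differ from those of the parenchyma. Platelet-derived growth factor receptor alpha, encoded by Pdgfra, is shared by these FBs.

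Ptn (ENSMUSG00000029838) lies on the minus strand at chr6:36714929-36810220 of GRCm38. The sequence before the start is shown for Ptn, which defines the cells, for Trpc6 and for Dpp4. Among the genes named, Trpc6 had the largest rise in Ptn FBs against all other Pdgfra barcodes. Dpp4 is a marker of adventitial FBs that was almost absent from Ptn FBs. The sequences are RefSeq promoters on GRCm38.p6, written 5′ to 3′ on the gene's strand and ending before the annotated gene. Capitals mark any match, on either strand, to the TATA motif TATAAA, to CCAAT, which NF-Y binds, to GGGCGG, which Sp factors bind, or to the AP-1 motif TGANTCA.
Ptn, chr6:36810221-36810429, minus strand: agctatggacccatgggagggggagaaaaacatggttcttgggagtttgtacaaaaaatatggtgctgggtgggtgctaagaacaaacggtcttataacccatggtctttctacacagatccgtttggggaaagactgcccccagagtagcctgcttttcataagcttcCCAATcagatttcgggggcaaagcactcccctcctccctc
Trpc6, chr9:8543892-8544141, plus strand: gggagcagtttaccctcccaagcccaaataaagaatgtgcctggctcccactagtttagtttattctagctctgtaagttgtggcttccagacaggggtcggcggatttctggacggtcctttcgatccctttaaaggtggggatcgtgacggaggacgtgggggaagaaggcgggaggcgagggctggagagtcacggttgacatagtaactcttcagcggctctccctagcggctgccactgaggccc
Dpp4, chr2:62412232-62412481, minus strand: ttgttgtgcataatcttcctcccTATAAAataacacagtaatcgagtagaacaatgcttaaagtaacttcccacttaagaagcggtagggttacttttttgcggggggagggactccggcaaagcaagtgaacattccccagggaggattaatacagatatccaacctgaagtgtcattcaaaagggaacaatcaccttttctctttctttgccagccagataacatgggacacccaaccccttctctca
Ptn had a CCAAT match, Dpp4 a TATAAA match, and Trpc6 none of the 4. Of the 12 genes with the largest rise named below, all 12 had a RefSeq promoter, and GGGCGG was in 8 of these windows of 250 bases, CCAAT in 5, TATAAA in 4 and TGANTCA in 0. Of the 12 with the largest fall, 7 had one, with GGGCGG in 4, CCAAT in 2, TATAAA in 1 and TGANTCA in 0. Among 32851 mouse promoters of the same length these motifs were in 32.7%, 33.8%, 12.4% and 6.75%, respectively. These counts describe letters in the window only.

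Ptn FBs were found in every library but made up unequal shares of the Pdgfra barcodes. Foxn1Lin female had 193 of 1759, or 11.0% (95% Clopper-Pearson interval 9.55% to 12.5%). Foxn1Lin male had 404 of 914, or 44.2% (41.0% to 47.5%), and wild type had 699 of 1776, or 39.4% (37.1% to 41.7%). The share of Foxn1Lin female stood apart and the other two lay close to each other. With 1 library per group the difference has no replicate check, and the intervals cover counting error only.

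The Pdgfra barcodes that were not Ptn FBs fell into 3 classes by the same genes. The Pi16 class had at least 1 UMI of Pi16 and held 53.8%, 11.7% and 16.0% of the Pdgfra barcodes. The Smoc2/Dpep1 class had at least 3 UMIs of Smoc2 and Dpep1 and held 27.2%, 35.7% and 35.8%. The remaining class, with neither and fewer than 3 UMIs of Ptn, held 7.96%, 8.42% and 8.90%. Thus the lower share of Ptn FBs in Foxn1Lin female stood beside a higher share of the Pi16 class.

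**Figure D1:**
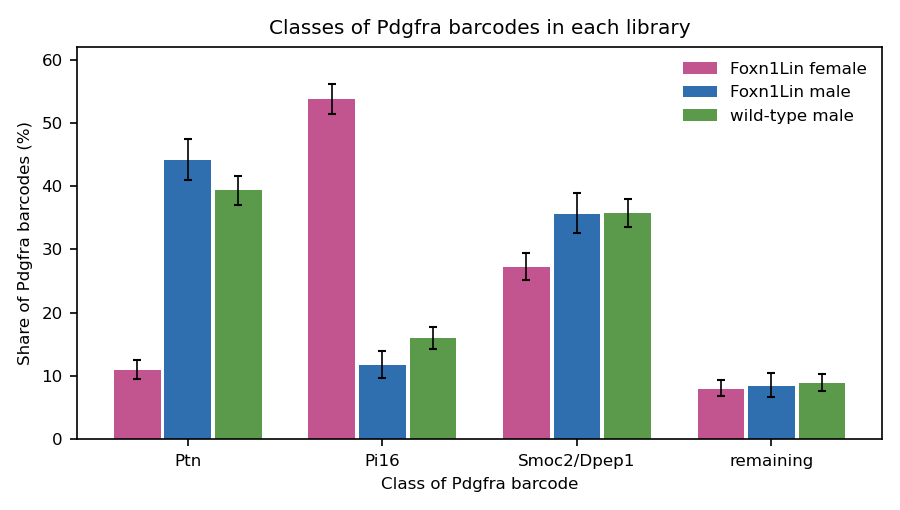
Share of Pdgfra barcodes (%, y axis) in the 4 classes (x axis) for each library, with 95% Clopper-Pearson intervals as error bars. Ptn FBs were 11.0%, 44.2% and 39.4% of Pdgfra barcodes, and the Pi16 class was 53.8%, 11.7% and 16.0%.

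Depth and free RNA also differed between the libraries, and their part in this share was not tested. The median UMIs of Ptn FBs were 5217, 9258.5 and 8336, and their sums over cells were 1067841, 3900141 and 6279254. Empty droplets, which sample free RNA, held Pi16 at 451, 42.2 and 98.0 CPM, which are UMIs scaled to the same total in each class and library. When Pi16 was allowed at 0 or 1 UMI, the share of Ptn FBs was 13.5%, 45.5% and 40.2%, and when the gate was applied to cells thinned to 3000 UMIs it was 13.9%, 56.1% and 48.4%. Foxn1Lin female remained lowest under both. The libraries shared 3 to 14 called barcodes in pairs, and 0 of these were Ptn FBs in both.

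The genes of the gate are given as a description, since they chose the cells. Ptn was at 3029, 3624 and 3133 CPM in Ptn FBs, with a median of 11, 27.5 and 22 UMIs per cell. Just inside the threshold 17, 9 and 29 cells had exactly 3 UMIs of Ptn, and just outside it 15, 7 and 14 cells of the remaining class had 2. Other classes held Ptn too, since 24.4%, 69.9% and 71.0% of the Smoc2/Dpep1 class and 11.6%, 30.8% and 20.1% of the Pi16 class also had 3 or more UMIs of it. Empty droplets held it at 115, 477 and 532 CPM. Smoc2 and Dpep1 were at 11.5 to 29.0 and 48.7 to 78.7 CPM in Ptn FBs, below their limit.

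Against epithelial cells the label of fibroblast held for genes outside the gate. After each cell was thinned to 3000 UMIs, a UMI of Dcn, a matrix proteoglycan gene of FBs, was in 100%, 100% and 99.0% of Ptn FBs, against 31.3%, 23.7% and 23.3% of epithelial cells. Col1a1, a chain of type I collagen, was in 42.9%, 44.2% and 55.7%, against 3.04%, 1.08% and 1.50% of epithelial cells. Summed over 6 FB genes outside the gate, Ptn FBs held 11228, 15595 and 13140 CPM. The other Pdgfra barcodes held 14147, 16614 and 15712 CPM, and empty droplets 3039, 3608 and 4031 CPM. Of these 6 genes, Col1a1, Col1a2, Col3a1 and Dpt were lower and 0 higher in the test described next. Epithelial markers other than Epcam summed to 27.4 to 149 CPM over 9 genes, compared with 4060 to 5584 CPM in epithelial cells and 1921 to 2373 CPM in empty droplets. Mki67, which marks cycling cells, was in 0%, 0% and 0.44%.

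To compare Ptn FBs with the other Pdgfra barcodes, counts were summed per library and tested with edgeR's quasi-likelihood test with the library as a block, over 12808 genes and without the 9 gate genes. Positive log2 fold changes are higher in Ptn FBs, and the adjusted p is Benjamini-Hochberg over all genes. At an adjusted p under 0.05, 830 genes were called (6.48% of those tested), of which 308 were higher (2.4%) and 522 lower (4.08%). Libraries are the replicates of this comparison (n = 3), and the block removes differences between libraries that both groups of cells share. Its p-values therefore rest on how the difference between Ptn FBs and the others varied among these 3 libraries. The other genes were counted in the same cells that the gate chose, and each difference is relative to the mix of classes in the other Pdgfra barcodes, which was not the same in each library.

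Among the 12 named genes with the largest rise were channels, adhesion molecules and receptors. Trpc6, a calcium-permeable cation channel gene, was at 15.9, 57.7 and 53.0 CPM in Ptn FBs, and at 1.91, 10.2 and 12.3 CPM in the other Pdgfra barcodes, which gave 2.38 ± 0.18 (log2 fold change ± SE, adjusted p = 0.000535 in edgeR). All 3 libraries were higher in Ptn FBs and the ranges did not overlap. Of the 3 other classes the remaining class held it at 8.41, 35.4 and 36.5 CPM, and Trpc6 did not pass against that class (0.62 ± 0.28, edgeR adjusted p = 0.234). Cpne4, a calcium-binding copine gene, was at 86.2, 102.6 and 130.4 CPM against 6.09, 35.0 and 44.9 (log2 fold change 2.09 ± 0.38, edgeR adjusted p = 0.0223), again without overlap.

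Cemip, which encodes a hyaluronan-degrading protein, was at 47.8, 30.0 and 76.0 CPM in Ptn FBs and 3.04, 8.41 and 33.0 CPM in the others (log2 fold change 1.98 ± 0.42). Its ranges overlapped across libraries, although each library was higher in Ptn FBs. Kcnip1, a potassium channel interacting protein gene, was at 81.5, 111 and 205 CPM against 19.6, 20.5 and 97.4 (1.77 ± 0.25), and Pcdh15, a protocadherin gene, at 338, 190 and 797 CPM against 48.7, 56.9 and 437 (1.77 ± 0.32). In both, wild type was highest in Ptn FBs and in the others alike. The remaining 5 outside the vessel markers were Adgrb3, an adhesion receptor gene, Ica1, Adra2a, an adrenergic receptor gene, Slc16a12, a transporter gene, and Ntng1, a netrin-like adhesion gene, with log2 fold changes of 1.65 to 1.76. In the comparisons with single classes below, Cpne4, Kcnip1, Ica1, Emcn and Aqp1 were called higher than in each class. Cemip, Pcdh15 and the others with the largest rise were not.

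Emcn and Aqp1, genes of endothelial cells, were also among these 12. Emcn was at 39.3, 41.8 and 39.7 CPM against 7.13, 12.9 and 10.7 (log2 fold change 1.97 ± 0.17), and Aqp1, a water channel gene, at 143, 101 and 89.0 CPM against 39.7, 20.0 and 28.4 (1.92 ± 0.15). Both were higher still in empty droplets, at 86.4 to 142 CPM for Emcn and 262 to 737 CPM for Aqp1. Of the 6 endothelial markers tested, Emcn and Plvap (log2 fold change 1.08 ± 0.14) were higher and 4 did not pass, with Cdh5 at 13.1, 0.51 and 1.59 CPM and Kdr at 17.8, 0.51 and 1.11 CPM in Ptn FBs. Summed over the 8 endothelial markers outside the gate, Ptn FBs held 236, 128 and 113 CPM, the other Pdgfra barcodes 110, 68.7 and 67.5 CPM and empty droplets 1638, 1171 and 841 CPM, and 7, 2 and 3 of the 8 genes were higher in Ptn FBs than in the others. The part of free RNA in these values was not tested.

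The 12 named genes with the largest fall were near 0 in Ptn FBs. Fn1, the fibronectin gene, was at 19.7, 2.05 and 5.41 CPM in Ptn FBs, and at 577, 191 and 409 CPM in the other Pdgfra barcodes (log2 fold change -5.86 ± 0.27, edgeR adjusted p = 4.7e-05). Opcml, a cell adhesion gene, was at 5.62, 5.13 and 6.69 CPM against 743, 212 and 338 (-5.82 ± 0.25). Dpp4, the dipeptidyl peptidase CD26 that marks adventitial progenitors, was at 3.75, 0.26 and 1.43 CPM against 110, 22.5 and 58.2 (-5.33 ± 0.22). For each of the 12 genes the ranges of Ptn FBs and other Pdgfra barcodes did not overlap.

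Wt1, a transcription factor gene of mesothelium and some mesenchyme, was at 5.62, 0.26 and 5.57 CPM against 290, 90.4 and 167 (-5.47 ± 0.32), and its antisense neighbor Wt1os had a log2 fold change of -6.45 ± 0.31. Adgrd1, an adhesion receptor gene, was at 21.5, 4.10 and 6.85 CPM against 649, 211 and 258 (-5.25 ± 0.17). The others were Car3, Pcsk6, Gpc3, a glypican gene, Vit, Ptx3, a pentraxin gene, and Pcolce2, at -6.94 to -5.19. Car3 was at 11.0, 162 and 10.6 CPM in the other Pdgfra barcodes, so Foxn1Lin male stood far above the other two, and its call was lost in DESeq2 (adjusted p = 0.0847).

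**Figure D2:**
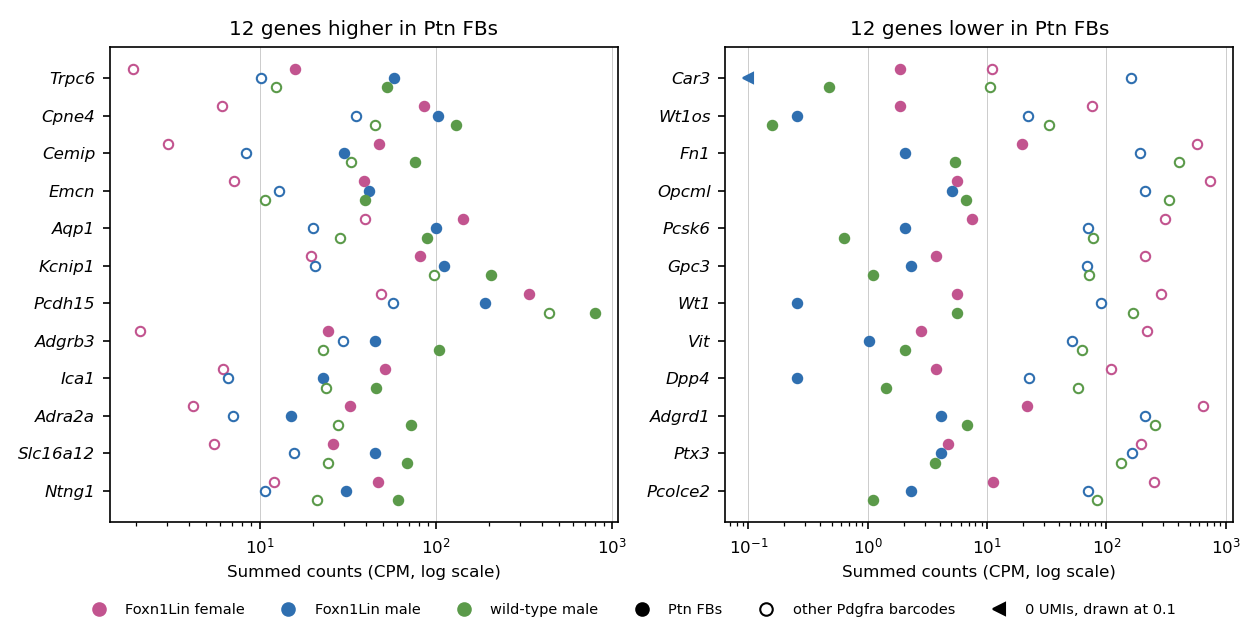
Summed counts (CPM, log x axis) of the 12 genes with the largest rise (left) and the 12 with the largest fall (right) in each library, with Ptn FBs as filled points and other Pdgfra barcodes as open points. For each gene and library the filled point lies to the right of the open one in the left panel and to its left in the right panel, where a triangle stands for 0 UMIs, as for Fn1 with 2.05 to 19.7 CPM in Ptn FBs and 191 to 577 CPM in the others.

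The calls against the other Pdgfra barcodes depended on single libraries. Without Foxn1Lin female, 634 genes were higher and 787 lower, without Foxn1Lin male 126 and 378, and without wild type 39 and 192. Of the 12 genes with the largest rise, Cpne4 (adjusted p = 0.0683), Adgrb3 (0.304) and Adra2a (0.102) lost their call in edgeR without wild type, and Cemip (0.0811), Pcdh15 (0.0665) and Ica1 (0.0807) without Foxn1Lin male, while all 12 with the largest fall kept it without each library. A fit without the library block called 2 genes higher and 84 lower, and 2 of the 12 and 11 of the 12 kept their calls. Reads in introns were counted, and genes called higher spanned a median of 63.2 kb in the genome and genes called lower 50.5 kb, against 25.4 kb for all genes tested.

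Pleiotrophin's partners were compared with the other Pdgfra barcodes first. Midkine, Mdk, was at 74.9, 89.5 and 64.7 CPM in Ptn FBs and 49.5, 77.5 and 55.3 CPM in the other Pdgfra barcodes, and did not pass the test (edgeR adjusted p = 0.172). Of 12 tested members among 15 listed ligands, receptors and coreceptors, 3 were lower and 0 higher. These were Sdc4, a syndecan, at 57.1, 143 and 69.4 CPM against 147, 216 and 125 (log2 fold change -0.89 ± 0.15), Lrp1, a large endocytic receptor, at 304, 244 and 266 CPM against 716, 475 and 515 (-1.04 ± 0.11), and Itgb3, an integrin chain, at 1.43 to 2.81 CPM against 6.65 to 28.5 (-2.38 ± 0.32). Without wild type, 1 of the 3 kept its call.

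The known signaling receptors of pleiotrophin were scarce in the same cells. Ptprz1, its receptor phosphatase, was at 18.7, 4.36 and 1.11 CPM, and Alk at 1.87, 0.51 and 1.91 CPM, and neither was tested. Ptprs was at 53.4, 35.9 and 75.5 CPM, and the syndecans Sdc1, Sdc2 and Sdc3 at 40.3 to 56.4, 202 to 271 and 24.6 to 55.7 CPM. Nrp1, Itgav and Ncl, which encode other reported binding partners, were at 304 to 621, 237 to 290 and 164 to 277 CPM. None of these 7 passed the test against the other Pdgfra barcodes, nor did Cspg5, at 1.75 to 3.75 CPM. Against the Pi16 class alone, where 10.4% of all genes were higher and 9.77% lower, 4 of 11 tested members were higher and 2 lower. The 4 were Mdk, at 35.7, 29.6 and 23.1 CPM in that class (log2 fold change 1.31 ± 0.19, edgeR adjusted p = 0.000252), Sdc1 (1.45 ± 0.27), Sdc3 (1.07 ± 0.25) and Nrp1 (1.11 ± 0.14), and each call was kept without any 1 library, and 1 of the 4 without the library block.

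Adventitial progenitor genes were mostly lower. Of 15 tested, 11 were lower, 0 higher and 4 did not pass, with a median log2 fold change of -1.60 beside 0.01 over all genes. Smpd3, a sphingomyelinase gene, was at 14.0, 3.59 and 1.27 CPM against 366, 85.7 and 101 (-5.15 ± 0.27). Efhd1 (-4.76 ± 0.24) and Anxa3 (-3.93 ± 0.19) followed, and Cd55, a complement inhibitor that marks the same FBs, was at 53.4, 23.3 and 48.1 CPM against 233, 55.6 and 135 (-1.60 ± 0.17). Pi16, another gene of these cells, was part of the gate, so this list is tied to the choice of cells. Of the 11 calls, 11, 11 and 8 remained when the female, the male trace or the wild-type library was left out, and 3 without the block. Against the Pi16 class alone 13 of the 15 were lower, Dpp4 among them, beside 9.77% of all genes. Against the Smoc2/Dpep1 class 2 were lower (Cd248 and Smpd3), beside 1.97%, and 0 of these calls remained without wild type. Against the remaining class 4 were lower and 2 higher (Ly6a and Cd34), beside 4.64% and 2.41%. Dpp4 did not pass against either of these classes.

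**Figure D3:**
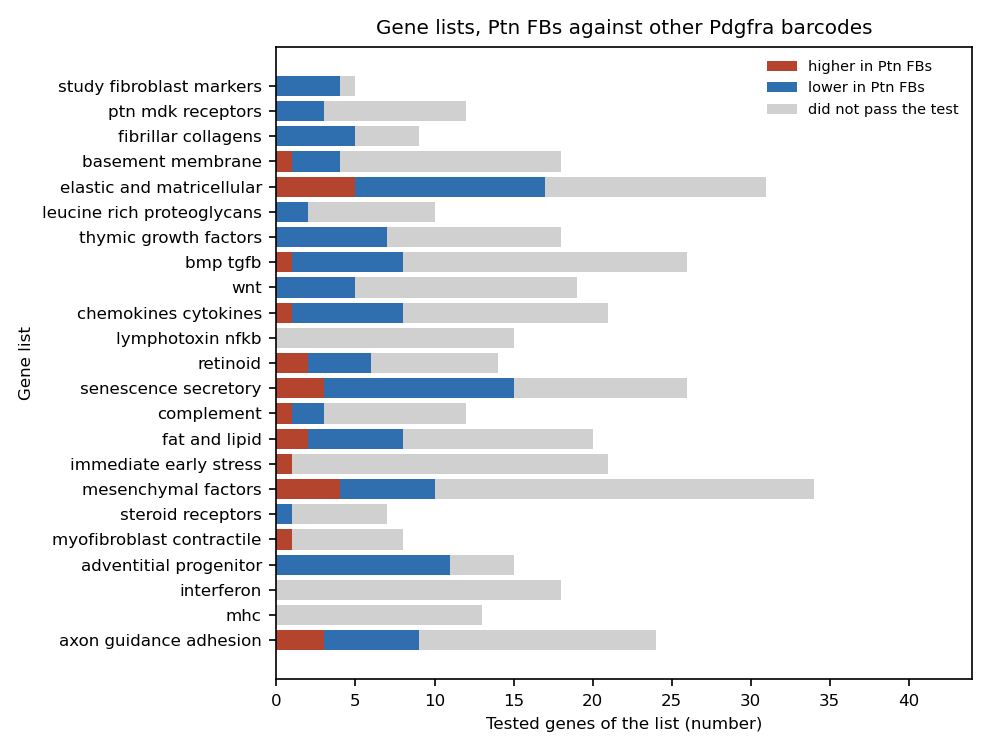
Number of tested genes (x axis) in each gene list (y axis) that were higher, lower or did not pass the test in Ptn FBs against other Pdgfra barcodes in edgeR. The adventitial progenitor list had 11 of 15 genes lower, and the lymphotoxin, interferon and MHC lists had none called.

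Matrix genes that passed the test against the other Pdgfra barcodes were mostly lower. Of 9 fibrillar collagen and related genes tested, 5 were lower and 0 higher, with a median log2 fold change of -0.60. Col14a1 was at 21.5, 8.97 and 10.0 CPM in Ptn FBs and 358, 99.6 and 212 CPM in the others (-4.02 ± 0.19), and Col1a1 at 288, 248 and 381 CPM against 545, 426 and 719 (-0.87 ± 0.10). Col1a2 (-0.69 ± 0.12), Col5a1 (-0.55 ± 0.11) and Col3a1 (-0.52 ± 0.10) were lower by less, and of the 5 calls Col14a1 alone was kept without wild type. Among 10 tested leucine-rich proteoglycan genes, Ogn (-4.17 ± 0.19) and Epyc (-3.43 ± 0.25) were lower and 8 did not pass. Against the Pi16, Smoc2/Dpep1 and remaining classes in turn, 2, 0 and 5 of these 10 were higher and 2, 2 and 3 lower. Of the 9 collagen genes 0, 0 and 1 were higher and 6, 2 and 1 lower.

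Of 31 elastic and matricellular genes, 12 were lower and 5 higher. Lower genes included Mfap5 (-3.48 ± 0.26) and Mfap4 (-2.90 ± 0.27) of microfibrils, Tnxb, a tenascin (-3.31 ± 0.22), and Lox, which crosslinks collagen and elastin, at 46.8, 30.3 and 18.2 CPM against 129, 102 and 79.5 (-1.80 ± 0.15). Higher were Eln, which encodes elastin, at 433, 250 and 479 CPM against 187, 171 and 324 (0.77 ± 0.15), Sparcl1 (0.64 ± 0.13), Ccn2 (0.59 ± 0.13) and the latent TGF-β binding proteins Ltbp1 (0.56 ± 0.11) and Ltbp4 (0.47 ± 0.11). All 5 higher calls were lost without Foxn1Lin male and likewise without wild type, and 9 and 8 of the 12 lower ones were kept. Of 18 basement membrane genes, Nid1 (-1.46 ± 0.19), Col4a4 (-3.04 ± 0.39) and Lamb2 (-0.58 ± 0.12) were lower and Col4a5 higher (0.73 ± 0.14), and of these 4 calls Nid1 alone was kept without wild type. Against the Pi16, Smoc2/Dpep1 and remaining classes in turn, 11, 2 and 5 of the 31 genes were higher and 13, 9 and 6 lower. Of the 18 genes 5, 0 and 4 were higher and 4, 3 and 2 lower. Over all genes 10.4%, 0.867% and 2.41% were higher and 9.77%, 1.97% and 4.64% lower.

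Growth factors for thymic epithelium and vessels were called lower against all other Pdgfra barcodes and in both directions against the Pi16 class. In the first comparison 7 of 18 tested were lower and 0 higher, with a median log2 fold change of -0.14. Fgf7, the keratinocyte growth factor gene, was at 14.0, 20.3 and 19.0 CPM in Ptn FBs and 51.5, 51.1 and 44.3 CPM in the others (-1.38 ± 0.15, edgeR adjusted p = 0.00269), with no overlap. Fgf10, its relative, was at 63.7, 62.6 and 157 CPM against 139, 164 and 235 (-1.01 ± 0.17), where wild type was highest in both groups of cells. Fgf18 (-2.29 ± 0.42), Fgf2 (-1.47 ± 0.17), Gdf10 (-1.18 ± 0.19), Igf1 (-0.84 ± 0.15) and Vegfa (-0.78 ± 0.12) completed the 7.

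Kitl, Il7, Flt3l and Bmp4, which also act on thymocytes or TECs, did not pass the test against the other Pdgfra barcodes. Kitl, the stem cell factor gene, was at 192, 258 and 243 CPM in Ptn FBs and 155, 266 and 199 CPM in the others. Il7, a T cell growth factor, was at 17.8, 14.4 and 24.4 CPM against 7.92, 10.4 and 17.2, and Flt3l at 105, 48.2 and 140 CPM against 36.1, 32.7 and 111. Bmp4, a growth factor for TECs, was at 59.0, 102 and 67.8 CPM against 19.2, 95.1 and 69.1. Of the 7 growth factor calls, 4 were kept without Foxn1Lin male and 3 without wild type, and Fgf7 was kept in both.

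Against the Pi16 class alone 5 of the 18 growth factors were higher and 8 lower. Over all genes these shares were 10.4% and 9.77%. Il7 was at 4.51, 3.28 and 5.38 CPM in that class (log2 fold change 2.02 ± 0.22, edgeR adjusted p = 2.88e-05) and Bmp4 at 16.4, 41.0 and 28.8 CPM (1.37 ± 0.25), below Ptn FBs in each library, although empty droplets held Il7 at 23.9 to 51.2 CPM. Igf2 (1.85 ± 0.36), Flt3l (1.36 ± 0.23) and Tslp (1.31 ± 0.22), were the other higher ones. The call of Igf2 was lost without wild type, and 2 of the 5 were kept without the library block. Bmp4 (1.09 ± 0.30) and Tslp (1.33 ± 0.27) were also higher than in the remaining class, calls that were lost without Foxn1Lin male and likewise without wild type, and none of the 18 was higher than in the Smoc2/Dpep1 class.

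Of 26 bone morphogenetic protein (BMP) and transforming growth factor β genes, 7 were lower and Inhba higher. Inhba, an activin subunit, was at 67.4, 64.9 and 47.6 CPM against 14.9, 41.7 and 17.4 (log2 fold change 1.36 ± 0.25). The lower genes were mainly secreted inhibitors, with Fst, which binds activin, at 7.49, 10.5 and 2.55 CPM against 120, 105 and 74.7 (-3.96 ± 0.26), Bmper at 6.56, 5.90 and 6.69 CPM against 70.5, 67.1 and 61.8 (-3.34 ± 0.15) and Chrdl1 (-1.73 ± 0.30). Of 19 Wnt pathway genes, 5 were lower and 0 higher, among them Sfrp2 (-4.74 ± 0.35), Rspo1 (-3.78 ± 0.31), Lgr5 (-3.80 ± 0.41) and Sfrp1 (-1.72 ± 0.20). Without wild type the Inhba call was lost, and 5 of 7 and 2 of 5 lower calls were kept.

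Chemokines and cytokines that passed the test were mostly lower. Of 21 tested, 7 were lower and 1 was higher. Cxcl13, a B cell chemokine, was at 27.2, 36.2 and 60.4 CPM in Ptn FBs and 396, 553 and 343 CPM in the others (-3.35 ± 0.29). Cxcl1 (-1.38 ± 0.13), Ccl7 (-1.19 ± 0.14), Ccl2 (-0.98 ± 0.19), Cxcl12 (-0.88 ± 0.11), Il6 (-0.86 ± 0.13) and Cxcl5 (-2.68 ± 0.39) were lower too. Il34, a ligand of the macrophage receptor CSF1R, was higher at 317, 467 and 512 CPM against 93.2, 288 and 287 (1.09 ± 0.20), a call that was lost without wild type along with 4 of the 7 lower ones. Ccl19, a chemokine for T cells, was at 550, 797 and 540 CPM against 188, 723 and 471 and did not pass.

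The senescence-associated secretory list had 12 genes lower and 3 higher of 26 tested, and the members named have different functions. Igfbp5 (-2.30 ± 0.26), Igfbp6 (-1.40 ± 0.29) and Saa3 (-2.34 ± 0.42) were lower, as were the matrix proteinase Mmp2 (-0.73 ± 0.10) and its inhibitor Timp2 (-0.96 ± 0.17). Serpine2, a serine proteinase inhibitor, was at 1349, 2040 and 2084 CPM against 301, 1186 and 1145 (1.26 ± 0.26), and Igfbp7 (0.73 ± 0.16) was also higher. Of the 3 higher and 12 lower calls, 0 and 4 were kept without wild type, Igfbp5 being the only one of the lower genes just named, and 1 and 7 without Foxn1Lin male. Il6, Cxcl1, Ccl2 and Ccl7, counted among the chemokines, were also among its lower genes.

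Transcription factors and retinoid genes included both directions. Of 34 mesenchymal factors, 4 were higher, namely Foxc2 (1.62 ± 0.33), Nr2f1 (1.33 ± 0.20), Meox1 (1.12 ± 0.15) and Osr2 (1.12 ± 0.25), and 6 were lower, including Hoxa5 (-3.91 ± 0.32), Hoxc4 (-2.17 ± 0.30), Osr1 (-1.59 ± 0.21) and Ebf2 (-1.53 ± 0.22). The paralogs Osr1 and Osr2 thus moved apart, at 11.2, 13.6 and 11.3 CPM against 60.3, 30.5 and 33.9 for Osr1, and 140, 160 and 95.4 CPM against 33.4, 97.7 and 57.6 for Osr2. Of 14 retinoid genes, Rdh10, which makes retinal, was higher (0.77 ± 0.13) with Rarb (0.69 ± 0.11), and Rbp4, Dhrs3 (-1.25 ± 0.12), Aldh1a3 (-0.93 ± 0.20) and Aldh1a1 (-0.62 ± 0.11) were lower. Rbp4 had 2 UMIs in all Ptn FBs, 0.0205 of the count that the level of the other Pdgfra barcodes gives (95% counting interval 0.00248 to 0.0739). Without wild type Meox1 alone of the 6 higher calls of these lists was kept, with 2 of 6 lower mesenchymal and 2 of 4 lower retinoid calls.

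Axon guidance and contractile genes were the other groups with calls. Slit3, a guidance ligand, was at 210, 442 and 215 CPM in Ptn FBs and 1075, 1298 and 798 CPM in the others (-1.92 ± 0.16), and Sema3e (-3.81 ± 0.47), Efna5 (-3.38 ± 0.25) and Sema3d (-2.53 ± 0.54) were lower as well. Its receptor Robo1 (0.70 ± 0.14), the netrin receptor Unc5b (0.98 ± 0.16) and Cadm1 (0.94 ± 0.19) were higher, giving 3 higher and 6 lower of 24, and without wild type the 3 higher and 3 of the 6 lower calls were lost. Of 8 myofibroblast genes, Des, the intermediate filament desmin, was higher, at 550, 370 and 447 CPM against 126, 218 and 250 (1.23 ± 0.25), a call that was lost without wild type. Acta2, smooth muscle actin, was at 82.4, 45.6 and 22.1 CPM against 41.1, 124 and 28.6 and did not pass.

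Mural cell markers stood beside the Des result. Of 9 tested, the pericyte channel genes Abcc9 (1.19 ± 0.25) and Kcnj8 (1.34 ± 0.26) were higher, and 7 did not pass, with Rgs5 at 30.9, 16.4 and 39.2 CPM in Ptn FBs and 18.1, 58.7 and 28.2 CPM in the others. Summed over the 9 genes the levels were 620, 607 and 585 CPM in Ptn FBs, 303, 771 and 380 CPM in the other Pdgfra barcodes and 733 to 1385 CPM in empty droplets. Neither call was kept without wild type or among cells of 5000 to 15000 UMIs. The part of mural cells in these values was not tested. Hematopoietic markers summed to 54.3, 16.7 and 16.9 CPM and erythroid ones to 184, 0.77 and 0.48 CPM, against 402, 0.59 and 0.64 CPM for erythroid genes in the other Pdgfra barcodes. Of the hematopoietic markers 5 could be tested and 0 were called, and no erythroid marker was tested in this comparison.

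Of 20 fat and lipid genes 2 were higher and 6 lower. Apoe, a lipid carrier, was at 4454, 4038 and 2429 CPM in Ptn FBs and 1321, 2606 and 1599 CPM in the others (0.99 ± 0.22), and Lepr, the leptin receptor, was higher too (1.16 ± 0.15). Pparg, the adipogenic regulator, was at 7.49, 1.28 and 1.75 CPM against 30.8, 12.1 and 12.0 (-2.66 ± 0.26), and Angptl1, Angptl4, Cebpa, Lpl and Ebf2 were lower. Without wild type both higher calls and those of Cebpa, Lpl and Ebf2 were lost, and without Foxn1Lin male those of Apoe, Cebpa and Lpl.

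Among 12 complement genes, C4b (-0.87 ± 0.12) and Cd55 were lower. Of 21 immediate early and stress genes Hspa1a, a heat shock gene, was higher, at 1229, 1744 and 1483 CPM against 237, 957 and 806 (1.36 ± 0.28). The calls of C4b and Hspa1a were lost without wild type. Of 5 tested genes that the study uses to mark thymic FB groups, Dpp4, Smpd3, Gpx3 (-1.63 ± 0.16) and Inmt (-1.34 ± 0.13) were lower and Postn did not pass (edgeR adjusted p = 0.104). None of 15 lymphotoxin and NF-κB genes, 18 interferon genes and 13 MHC genes passed the test against the other Pdgfra barcodes. Cd74, the invariant chain of MHC class II, was at 218, 245 and 202 CPM in Ptn FBs and 130, 154 and 320 CPM in the others.

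Each of the 3 other classes was then compared with Ptn FBs on its own, in 1 edgeR fit over 12337 genes with the library as a block. Most calls were made against the Pi16 class, with 20.2% of genes called, 1281 higher (10.4%) and 1205 lower (9.77%). Against the remaining class 7.04% were called, 297 higher (2.41%) and 572 lower (4.64%), and against the Smoc2/Dpep1 class 2.84%, 107 higher (0.867%) and 243 lower (1.97%). The number of cells in a class also differed. These comparisons share the sums of the Ptn FBs, and without wild type 639 and 646, 84 and 161, and 16 and 83 genes were called in the same order.

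Against the Pi16 class, the 5 named genes with the largest rise were Tnc, Tnfsf8, Ntng1, Ano1 and Spp1. Spp1 passed narrowly (edgeR adjusted p = 0.0496), was at 4.30 CPM against 1.92 in wild type, and had its level in the Foxn1Lin libraries from few cells, with 4 of 193 and 3 of 404 holding 3 or more UMIs. Its call was lost without Foxn1Lin female (edgeR adjusted p = 0.164), without Foxn1Lin male (0.176), with other size factors, among cells of 5000 to 15000 UMIs and without the library block. Tnc, the matricellular protein tenascin C, was at 364, 291 and 340 CPM in Ptn FBs and 13.5, 43.5 and 41.9 CPM in the Pi16 class (log2 fold change 3.58 ± 0.40). Tnfsf8, which encodes the ligand of CD30, was at 8.43, 101 and 160 CPM against 1.46, 9.03 and 13.8 (3.37 ± 0.42), and Ano1, a chloride channel, at 21.5, 65.6 and 99.7 CPM against 2.78, 5.75 and 12.7 (3.16 ± 0.45). Wild type was highest and Foxn1Lin female lowest for both Tnfsf8 and Ano1 in each of the 2 classes. Ano1 was lower in Ptn FBs than in the remaining class (-1.55, edgeR adjusted p = 0.0199). That call was lost without Foxn1Lin female and likewise without Foxn1Lin male.

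Against the Smoc2/Dpep1 class Trpc6, at 2.78, 5.11 and 9.21 CPM there, had the largest rise (2.82 ± 0.27), followed by Fgf14 (2.11 ± 0.50), Aqp1 (2.06 ± 0.17), Emcn (1.87 ± 0.31) and Cpne4 (1.67 ± 0.36). Fgf14, an intracellular FGF homolog, was at 57.1, 20.5 and 61.0 CPM against 19.8, 0.90 and 18.4, and at 34.2 to 134 CPM in empty droplets. The call of Fgf14 was lost without Foxn1Lin female and without wild type, and those of Cpne4 against this class and the remaining class without wild type. Fgf14 was lower in Ptn FBs than in the remaining class (-1.89 ± 0.47), a call lost without the same libraries. Against the remaining class the 5 were Adgrb3 (3.60 ± 0.93), Fetub (3.38 ± 0.87), Dkk2 (3.35 ± 0.43), Pla2g7 (3.32 ± 0.39) and P2ry1 (2.83 ± 0.40). Dkk2, a secreted Wnt modulator, was at 137, 148 and 200 CPM against 7.01, 17.7 and 25.5, with no overlap. The calls of Adgrb3 and Fetub were lost without Foxn1Lin female and likewise without wild type. Without the library block the 5 calls against the Smoc2/Dpep1 class and the 5 against the remaining class were all lost.

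**Figure D4:**
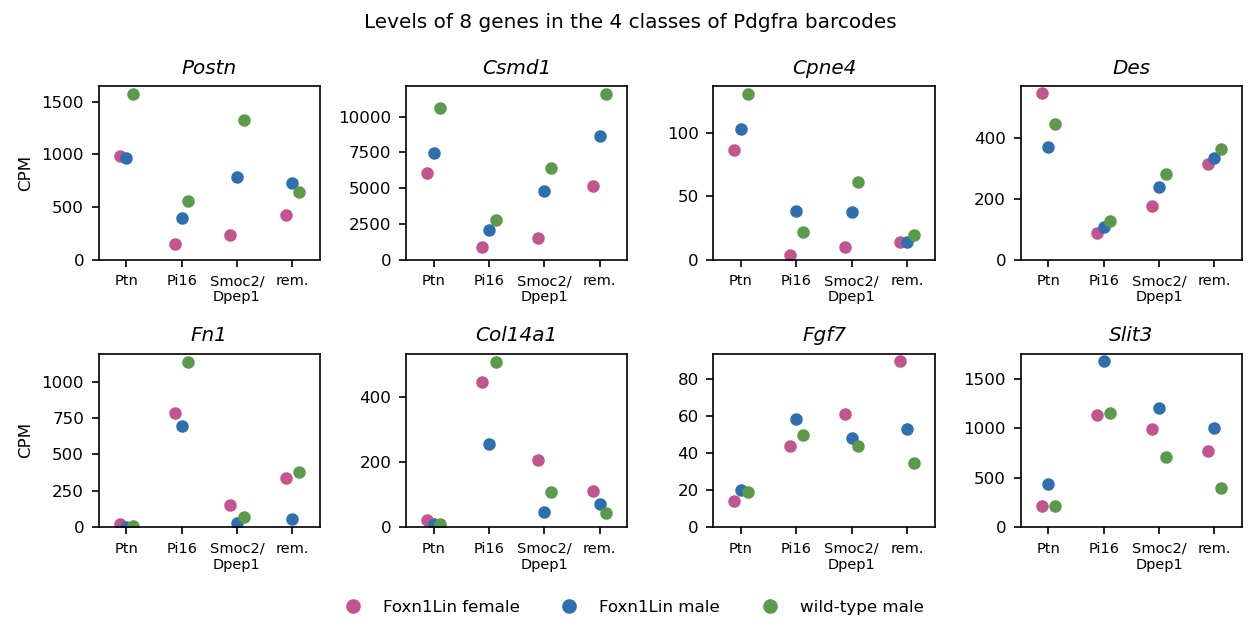
Levels (CPM, linear y axis from 0) of 8 genes in the Ptn, Pi16, Smoc2/Dpep1 and remaining classes (x axis), 1 point per library. Cpne4 was highest in Ptn FBs in each library, Csmd1 and Des were lowest in the Pi16 class, and Fn1, Col14a1, Fgf7 and Slit3 were lowest in Ptn FBs.

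Levels over the 4 classes differed in form between genes. Csmd1, a complement regulator homolog with a span of 1643 kb, was at 6048, 7450 and 10575 CPM in Ptn FBs, 873, 2052 and 2757 CPM in the Pi16 class, 1495, 4812 and 6418 CPM in the Smoc2/Dpep1 class and 5159, 8686 and 11613 CPM in the remaining class. It was higher than in the Pi16 class (log2 fold change 2.21) and the Smoc2/Dpep1 class (1.11) and did not pass against the remaining class. Postn, periostin, was at 986, 969 and 1579 CPM in Ptn FBs and 146, 399 and 558 CPM in the Pi16 class (1.87, edgeR adjusted p = 0.000885), and did not pass against the Smoc2/Dpep1 class, with 233, 787 and 1324 CPM, or the remaining class, with 428, 730 and 644 CPM.

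Fgf7 was lower in Ptn FBs than in each class, with log2 fold changes of -1.36, -1.40 and -1.60 against the Pi16, Smoc2/Dpep1 and remaining classes, as was Slit3 with -2.26, -1.80 and -1.34. Fn1 was at 783, 697 and 1135 CPM in the Pi16 class and 151, 28.2 and 73.0 CPM in the Smoc2/Dpep1 class, with log2 fold changes of -7.28 and -3.58. Cpne4 was higher in Ptn FBs than in each class, with log2 fold changes of 2.71, 1.67 and 2.75 against the Pi16, Smoc2/Dpep1 and remaining classes.

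Genes of the MHC, interferon and lymphotoxin lists were called against single classes. Of 13 MHC genes tested, 9 were higher in Ptn FBs than in the Pi16 class, where 10.4% of all genes were, and 0 than in either other class. H2-Aa, a chain of MHC class II, was at 107, 88.2 and 98.3 CPM in Ptn FBs and 39.2, 16.4 and 94.5 CPM in the Pi16 class, with 795 to 1662 CPM in empty droplets. Of the 9 calls 2 were kept without Foxn1Lin female, 4 without Foxn1Lin male, 8 without wild type and 0 without the library block.

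Of 18 interferon genes 5 were higher than in the Pi16 class, including Cxcl9 (1.34 ± 0.40), Cxcl10 (1.33 ± 0.33), Ifit3 (0.91 ± 0.30) and Ifitm3 (0.43 ± 0.12), and 1 of the 5 calls was kept without Foxn1Lin female. Of 15 lymphotoxin and NF-κB genes 4 were higher than in the Pi16 class, namely Tnfaip3 (1.15 ± 0.18), Birc3 (0.96 ± 0.15), Map3k14, the NIK kinase of the noncanonical pathway (0.65 ± 0.16), and Nfkb2 (0.59 ± 0.12). Map3k14 lost its call without Foxn1Lin female and without wild type, and without the library block 0 of the 5 interferon and 1 of these 4 calls were kept. In the other class comparisons Ifi27l2a was higher than in the Smoc2/Dpep1 class (0.87 ± 0.19), and Gbp2 (-0.89 ± 0.21), Nfkb1 (-0.95 ± 0.19) and Nfkbia (-0.81 ± 0.19) were lower than in the remaining class, and none of these 4 calls was kept without wild type.

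Over all genes, 10.4% were higher and 9.77% lower than in the Pi16 class. Against the remaining class these shares were 2.41% and 4.64%. The myofibroblast list was higher in 4 of 8 against the Pi16 class and lower in 6 of 8 against the remaining class, a class whose summed mural markers were 987, 3250 and 992 CPM. Of the 4 higher calls 2 were kept without Foxn1Lin female and 2 without wild type, and of the 6 lower ones 3 without wild type. Of 22 chemokines and cytokines 8 were higher and 5 lower than in the Pi16 class, of which 4 and 2 were kept without wild type, and 11 were lower than in the remaining class, of which 3 were kept. Il34 was higher than in the remaining class (1.12 ± 0.18), a call that was lost without wild type. Of 26 BMP and transforming growth factor β genes 7 were higher and 9 lower than in the Pi16 class, of which 4 and 8 were kept without Foxn1Lin female and 6 and 6 without wild type. Of 21 immediate early and stress genes 7 were higher and 2 lower than in the Pi16 class, of which 3 and 1 were kept without Foxn1Lin female and 5 and 0 without wild type, the 2 lower ones being Fosl2 (-0.52 ± 0.14) and Klf4 (-0.58 ± 0.18).

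Genes whose levels followed Ptn over the 12 sums of class and library are given as a description, since the classes were cut on Ptn. Among 6659 genes of at least 20 CPM in Ptn FBs, Fbln1, which encodes a matrix glycoprotein, had the highest Pearson correlation of log2(CPM + 1) with Ptn (r = 0.97), then Tcn2, a vitamin B12 carrier (0.96), Creld2 (0.93), Apod, a lipid carrier (0.92), P2ry1 (0.92), Tmem167 (0.92), Fetub (0.91), Col6a2 (0.90), Lman1 (0.90) and Col15a1 (0.90). Apod was at 2897, 2988 and 2976 CPM in Ptn FBs, 661, 1452 and 1214 CPM in the Pi16 class, 1236, 2344 and 2801 CPM in the Smoc2/Dpep1 class and 687, 489 and 1072 CPM in the remaining class. The sums share libraries, and their depth follows the number of cells.

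Ptn FBs also varied among themselves. After thinning to 3000 UMIs, 170, 396 and 677 cells were left, and genes were ordered by the median over libraries of the Fano factor, the variance over the mean, among 4127 genes with a mean of at least 0.1. Gm42418, which overlaps ribosomal RNA repeats, led with 35.9, followed by Mgp, a calcification inhibitor of matrix (23.0), Malat1 (22.6), Igfbp5 (21.9), Csmd1 (21.5), Tnfaip6 (13.6), Clu (13.1), Cxcl10 (12.0), Mt1 (11.7) and Apoe (10.8). Igfbp5 was concentrated in few cells, with a UMI in 22, 10 and 35 cells and a mean of 0.52, 0.15 and 0.17 UMIs. Cxcl10, an interferon-induced chemokine, had a UMI in 58, 60 and 175 cells with a mean of 1.72, 1.14 and 1.12.

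Between libraries Ptn FBs can be compared by their summed CPM alone, with no test. Foxn1Lin female and Foxn1Lin male, which differ in sex, had 8693 genes with at least 50 UMIs together, of which 7.9% differed at least 2-fold, 282 being higher in the female (3.24%) and 405 lower (4.66%). Sex-linked genes marked the ends. Xist, the X-inactivation transcript, had 700 UMIs in Ptn FBs of the female and 0 in the male, a ratio whose 95% counting interval starts at 691. Uty and Eif2s3y of the Y chromosome had 0 against 255 and 164 UMIs, ratios whose counting intervals end at 0.0532 and 0.0831. Ddx3y, also Y-linked, had 3 UMIs in the female and 580 in the male, a ratio with a counting interval of 0.00388 to 0.0555.

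The other named genes higher in the female were high in its empty droplets too. Sema3c was at 884 CPM in the female (95% Poisson interval 829 to 942) and 3.08 CPM in the male (1.59 to 5.37), and at 2312 and 25.5 CPM in empty droplets, and Pth, the parathyroid hormone gene, at 179 and 8.20 CPM, with 4075 and 331 CPM in empty droplets. Lars2, Cmss1 and Camk1d were at 1562, 3740 and 2493 CPM in the female and 71.5, 203 and 220 CPM in the male, and 312 to 8914 CPM in empty droplets of the 2 libraries. Lower in the female were Tnfsf8, at 8.43 CPM against 101, Tpbg, at 3.75 against 38.5, and Pfn1, a profilin gene, at 45.0 against 345. The other Pdgfra barcodes of the female were lower too, with Tnfsf8 at 5.13 against 62.2 CPM, Tpbg at 8.002 against 41.9 and Pfn1 at 40.4 against 312, and Pfn1 was at 58.4 and 416 CPM in empty droplets. The part of free RNA was not tested.

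Foxn1Lin male and wild type, both male, differ in genotype and sort label. Of 10599 genes with at least 50 UMIs, 9.03% differed at least 2-fold. Of them 247 were higher in Foxn1Lin male (2.33%) and 710 lower (6.7%), around a median log2 ratio of -0.14, and with TMM factors, which recenter the libraries, the counts were 349 and 477. Spp1, osteopontin, had the largest ratio, at 75.9 CPM in Foxn1Lin male (67.5 to 85.1) and 4.30 CPM in wild type (2.83 to 6.26), and was at 78.7 CPM in Foxn1Lin female. Few cells held it, since 398 of 404 Ptn FBs in Foxn1Lin male and 185 of 193 in Foxn1Lin female had 0 UMIs of Spp1, and the 3 and 4 cells with 3 or more UMIs were at 8805 and 2915 CPM. Fosl1, an AP-1 factor, was at 66.4 and 9.87 CPM, Zbtb16 at 128 and 21.8, Tnfrsf12a at 104 and 19.7, and the metallothioneins Mt1 and Mt2 at 2198 and 409 and at 563 and 111. The other Pdgfra barcodes of the 2 libraries differed in the same direction for these 6 genes except Spp1, with Mt1 at 3555 and 1043, Mt2 at 1156 and 478, Zbtb16 at 224 and 51.3, Fosl1 at 49.5 and 17.1 and Tnfrsf12a at 90.0 and 31.2 CPM. Spp1 was at close levels there, 17.2 and 15.7 CPM. At the other end were Nxph1, at 1.03 and 74.2 CPM, Tmem108, at 2.82 and 36.0, Mei4, Il1rapl1, Hpse2 and Nkain3, with log2 ratios of -6.18 to -2.68. Nxph1 was at 7.05 and 95.4 CPM in the other Pdgfra barcodes, Tmem108 at 5.28 and 6.66 and Hpse2 at 28.2 and 27.1.

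The lineage reporter was read in Ptn FBs of both Foxn1Lin libraries and was at 0 of 6279254 UMIs in wild type. In Foxn1Lin female Ptn FBs held it at 102 CPM (109 UMIs, 95% Poisson interval 83.8 to 123) and in Foxn1Lin male at 74.4 CPM (290 UMIs, 66.0 to 83.4). It was at 19.1 and 16.4 CPM in the Pi16 class, 42.6 and 50.8 CPM in the Smoc2/Dpep1 class, 68.7 and 8.86 CPM in the remaining class and 824 and 1284 CPM in epithelial cells, which had at least 2 UMIs of Epcam. Empty droplets held it at 236 and 579 CPM, above the Ptn FBs in both libraries.

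**Figure D5:**
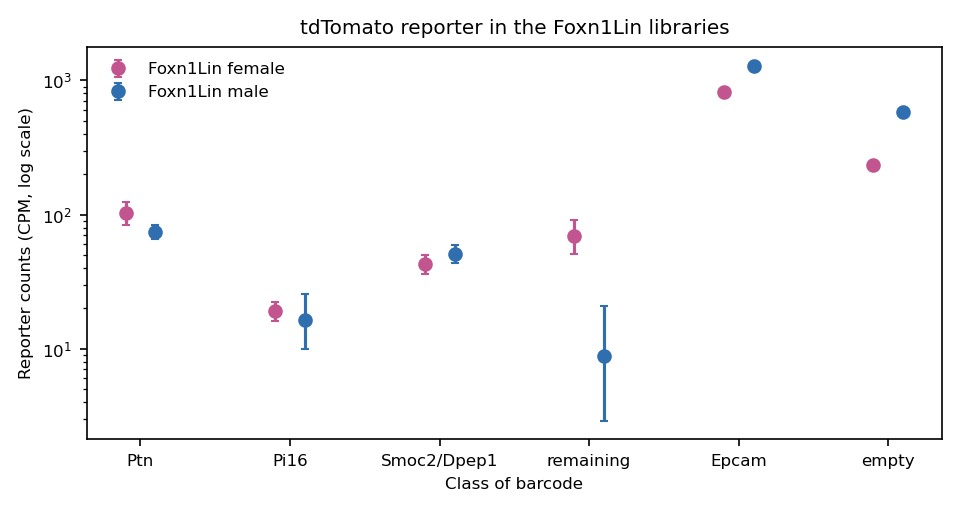
Reporter level (CPM, log y axis) with 95% Poisson intervals in the 4 classes of Pdgfra barcodes, in epithelial cells (Epcam) and in empty droplets (x axis) for the 2 Foxn1Lin libraries. Ptn FBs lay at 102 and 74.4 CPM, between the Pi16 class (19.1 and 16.4) and empty droplets (236 and 579).

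Most of the reporter of Ptn FBs was in few cells. After thinning to 3000 UMIs a reporter UMI was in 14.7% of Ptn FBs of Foxn1Lin female (25 of 170, Clopper-Pearson interval 9.75% to 20.9%) and 6.06% of Foxn1Lin male (24 of 396, 3.92% to 8.88%), against 75.1% and 84.1% of epithelial cells. It was in 5.84% and 4.76% of the Pi16 class, and its interval there overlapped that of Ptn FBs in Foxn1Lin male. In the Smoc2/Dpep1 class it was in 9.66% (7.08% to 12.8%) and 5.94% (3.61% to 9.12%), which overlapped Ptn FBs in both libraries. In unthinned cells, 6 of 193 and 8 of 404 Ptn FBs had 5 or more reporter UMIs and held 66 of 109 and 216 of 290 of them. These cells had Spp1 at 1309 and 1291 CPM and Cd74 at 1292 and 2301 CPM, whereas Ptn FBs with 0 reporter UMIs had Spp1 at 8.58 and 0.62 CPM and Cd74 at 163 and 165 CPM. Their median UMIs were 7555 and 17615, against 4996 and 9272 in cells with 0. Without the barcodes that held a reporter or Spp1 UMI, an alternative chosen after seeing the data, 324 genes were higher and 545 lower than in the other Pdgfra barcodes. The part of doublets and free RNA in the reporter counts was not tested.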

How the data were processed

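CD45- thymic cells of 3 libraries were profiled by droplet single-cell RNA sequencing. The deposited counts are whole UMI counts per gene and barcode that the authors made with Cell Ranger (7.01 in the submitters' processing notes, 7.0.1 in the matrix header) on mm10 with 8 transgenes added, introns included, and the deposited metrics give saturation as a percent (52.1%, 81.0% and 72.8%). The libraries held 8616, 3583 and 5478 called barcodes with 53366016, 33386621 and 61258534 UMIs. The protocol in the labels names pooled thymi of female mice for all libraries, also those labelled male, and no source says how many independent animals a library stands for.

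Counts of members and of other Pdgfra barcodes were summed per library and tested with edgeR 4.0.16 (quasi-likelihood, TMM, filterByExpr) with the library as a block, the SE being the absolute log2 fold change over the square root of F. CPM are summed UMIs scaled by the total of the same class and library. The fit was also run on counts simulated with its own dispersion, which checks the code and not the calls made here. The 9 gate genes were left out. Members and gene lists were chosen with earlier results of these data known. Genes named were the 12 largest changes in each direction of at least 20 CPM with 1 sign in 3 libraries, up to 4 per list, 5 per class, 6 per direction between libraries with at least 100 UMIs, and 10 for variability and for likeness to Ptn, and other list members were named after their values were seen. Doublets were not removed, except as an alternative (the 3.9% with the highest Scrublet scores). DESeq2 1.42.0 was an alternative. Shared symbols were summed, and overlapping or antisense genes may share reads. Some list members are not reported here.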

Additional observations from a re-analysis of the deposited data

Results flagged for a closer look

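Between libraries the log2 ratio of Ptn FBs over the other Pdgfra barcodes was above 0 in at least 1 library and below 0 in another, each with a 95% counting interval that left out 0, for 11 of the genes named other than those of the gate (female first, wild type last). It was 3.41, 2.14 and -1.87 for Spp1, of which 185 of 193, 398 of 404 and 684 of 699 Ptn FBs had 0 UMIs. It was -0.61, 0.42 and -0.79 for Fosl1, and -0.78, 0.21 and -0.66 for Tnfrsf12a. It was -0.81, 0.73 and 0.80 for Il1rapl1, and -0.45, 2.57 and -0.15 for Clu. It was 1.002, -1.44 and -0.37 for Acta2, and 0.77, -1.84 and 0.47 for Rgs5. It was 0.75, 0.66 and -0.66 for Cd74, 0.83, 0.57 and -0.50 for H2-Aa, and 1.13, 0.75 and -0.28 for Cxcl9. It was -0.0026, 0.21 and -0.48 for Nfkbia. With 1 library per group these differences were not tested. The lineage reporter, which was left out when the genes of each comparison were named, was read in Ptn FBs at 102 CPM in Foxn1Lin female. It was at 74.4 CPM in Foxn1Lin male and at 0 in wild type.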

How the results depend on the processing

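The number of genes called depended on the design. Against all other Pdgfra barcodes, 308 genes higher and 522 lower became 204 and 432 among cells of 5000 to 15000 UMIs, 531 and 699 with the gate on cells thinned to 3000 UMIs, and 809 and 1094 with no filter on low counts. With no filter the Smoc2/Dpep1 class gave 426 and 554 and the remaining class 607 and 875. Without the library as a replicate block, 2 and 84 genes were called against all others, 330 and 466 against the Pi16 class, 0 and 10 against the Smoc2/Dpep1 class and 12 and 52 against the remaining class. Leaving out 1 library gave 39 to 634 and 192 to 787 against all others, 639 to 993 and 646 to 964, 16 to 96 and 83 to 203, and 84 to 172 and 161 to 422 against the same 3 classes. The share of Ptn FBs in Foxn1Lin female was 9.21% with at least 5 UMIs of Ptn, 7.92% within the depth window, 13.9% with the thinned gate and 13.5% with Pi16 at 0 or 1 UMI, an alternative chosen after seeing the data. In Foxn1Lin male the thinned gate gave 56.1%, and in wild type 48.4%, with 36.5% at 5 UMIs of Ptn. With at least 200 UMIs, 68 and 152 genes differed 2-fold between Foxn1Lin female and male and 122 and 283 between the male libraries. Tnfsf8 had a log2 fold change of -0.0102 with the thinned gate, against 0.88. The cause of these changes was not tested, except that a filter sets the genes tested. Each group has 1 library, so depth, sex, genotype and sort cannot be told apart between libraries.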
